A study of Mus musculus with 29 samples.

Results

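Fatty acid oxidation and ketogenesis were examined through 35 named genes of the 54532 genes in a count table from mouse colon. The genes were taken by symbol through their Ensembl identifiers, and all 35 were found. No value entered that matching, but the list was chosen with earlier results of these data known. They comprised the carnitine shuttle, the enzymes of mitochondrial and peroxisomal beta-oxidation, the electron transfer proteins that follow them, acyl-CoA synthetases and thioesterases, ketone body enzymes, and proteins of fuel choice, lipid storage and fatty acid binding. Of these, 34 had a mean count of at least 3 over the 29 mice and were tested. Fabp1, a fatty acid binding protein of liver and small intestine, did not reach that mean, and its level lay between 0 and 0.314 CPM in every mouse. Levels are given in CPM, a gene's counts divided by its mouse's library size after scaling by TMM, edgeR's method for making library sizes comparable.

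Poly(A) RNA of colon segments was sequenced from 29 mice in 9 groups, with 1 library per mouse, to compare 6 models of colitis with untreated animals. In the Balb/C background, as labelled, untreated wild-type mice (n = 3) served as controls for mice given 3% DSS in drinking water for 5 days and culled at day 10 (n = 3), for mice given 3 mg of DNBS rectally (n = 3), and for mice given an IL10 blocking antibody (IL10 group, n = 4), for which the treatment text names 750 µg of an antibody to the IL-10 receptor and culling after 4 weeks, or earlier with signs of colitis. TRUC mice (Balb/C Tbx21-/- x Rag2-/-, n = 4), which develop colitis without treatment, were set against untreated Balb/C Rag2-/- mice (n = 3), both groups being labelled Rag2-/-. In C57BL/6 Rag1-/- mice, an untreated group (n = 3) served as the control for mice given 500000 naive CD4+ T cells and culled after 6 to 8 weeks (TCT, n = 3) and for mice given 50 µg of an agonist antibody to CD40 and culled after 7 days (anti-CD40, n = 3). No field of the labels gives an age (the identifier of TRUC mouse 4 ends in 8W, whose meaning is not given), and the treatment text names Rag2-/- recipients for the T-cell transfer where the genotype label says Rag1-/-. The DSS, DNBS and IL10 comparisons shared the wild-type controls, and the TCT and anti-CD40 comparisons shared the Rag1-/- controls. Nothing says whether mice of a group shared a cage or litter, so p-values measure the spread between these mice.

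Fatty acids enter mitochondria as carnitine esters and are shortened by repeated rounds of dehydrogenation, hydration, a further dehydrogenation and thiolytic cleavage, with electrons passed on through the electron transfer flavoprotein. Peroxisomes shorten very long chains, auxiliary enzymes handle double bonds, and acetyl-CoA from these reactions can be turned into ketone bodies. Colonocytes are known for drawing much of their energy from butyrate, a short-chain fatty acid made by gut bacteria, which is oxidised by the same mitochondrial machinery.

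Total counts per mouse lay between 10725564 and 14977094. The genotype labels were examined in the counts before the members. Rag2 had 6 to 99 counts per mouse in the Rag2-/- control, TRUC, Rag1-/- control and anti-CD40 groups and at most 1 in the others, while Rag1 had 20 to 33 counts in the TCT mice and at most 4 elsewhere. Tbx21 had 26 to 52 counts in TRUC and 1 to 7 in Rag2-/- controls. Which part of each gene was deleted is not given in the sources used here, so these counts do not check the knockouts. The libraries labelled Rag1-/- control and TCT differed in which recombinase transcript was detected, and a difference in background between TCT and its control cannot be told apart from the transfer. Mouse 4 of the IL10 group stood apart from the other mice of all groups: its summed level of 4 markers of distal colon (Hoxa13, Hoxb13, Hoxd13 and Insl5) was 2.09 CPM, against 492 to 900 CPM in the other 3 IL10 mice and 781 to 1015 CPM in the wild-type controls. The summed level of small intestinal enterocyte markers was 41.5 CPM in this mouse and 7.38 to 9.15 CPM in the other IL10 mice. Most of that sum came from Alpi, at 305 counts against 17 to 20 in the other IL10 mice. Sis had 18 counts against 0 to 2, and Lct 3 against 0 to 2. Mttp had 71 against 63 to 91, and Apoa4 had 0 in all IL10 mice. The summed level of absorptive colonocyte markers was also highest in mouse 4, at 7713 CPM against 2694 to 5560 CPM in the other IL10 mice. Of the 4 distal colon markers, mouse 3 of the IL10 group was low for 1. Hoxd13 was at 249, 276, 7.89 and 0.314 CPM in the 4 IL10 mice and at 249 to 274 CPM in the wild-type controls. For the members, IL10 calls on the TMM scale that were found to change without mouse 4 are given with and without it. Other IL10 changes, such as those of Acads, Cpt2 and Pdk4, are given with mouse 4 only unless stated. The counts of members called are also given without both mice, a choice made after these values were seen. For other genes of the pathways, and under the scaling to epithelium markers, IL10 results include mouse 4 throughout. Epithelium markers, which check the tissue, were abundant in every mouse, with a summed level of 6625 CPM or more for 8 markers. In whole tissue, fewer cells of a type and less RNA per cell cannot be told apart.

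Promoter sequence is shown for members whose position or sequence bears on the values that follow. RefSeq promoters on GRCm38.p6, spanning 250 bases before to 50 bases after a start site, were found for 30 of the 35 members, with 33 promoters in all. Acaa2, Hsd17b4, Decr1, Acat1 and Angptl4 had no entry. Hadha and Hadhb encode the alpha and beta subunits of the mitochondrial trifunctional protein and lie head to head on chromosome 5, with the annotated starts separated by 85 bases (chr5:30155163-30155247). The Hadhb promoter (chr5:30155003-30155302, plus strand) is printed 5′ to 3′ with those bases in capitals.
Hadhb: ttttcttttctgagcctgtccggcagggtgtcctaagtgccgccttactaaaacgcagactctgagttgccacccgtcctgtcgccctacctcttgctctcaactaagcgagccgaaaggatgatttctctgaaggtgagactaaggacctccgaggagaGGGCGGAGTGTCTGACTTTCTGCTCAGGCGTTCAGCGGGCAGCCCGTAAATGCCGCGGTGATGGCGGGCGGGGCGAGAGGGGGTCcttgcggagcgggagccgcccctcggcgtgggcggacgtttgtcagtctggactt

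A direct repeat with a spacing of 1 base is the element that peroxisome proliferator-activated receptors are known to bind with RXR. The exact repeat AGGTCANAGGTCA, searched on both strands, was present in 13 of 32851 promoters (0.0396%) and in no member promoter. The looser AGGNCANAGGNCA, which includes the exact form, was present in 125 promoters (0.381%) and among the members in that of Fabp1 alone, on the minus strand from 67 to 55 bases before the start. The Fabp1 promoter (chr6:71199629-71199928, plus strand) is shown with the match in capitals. The match describes these letters only.
Fabp1: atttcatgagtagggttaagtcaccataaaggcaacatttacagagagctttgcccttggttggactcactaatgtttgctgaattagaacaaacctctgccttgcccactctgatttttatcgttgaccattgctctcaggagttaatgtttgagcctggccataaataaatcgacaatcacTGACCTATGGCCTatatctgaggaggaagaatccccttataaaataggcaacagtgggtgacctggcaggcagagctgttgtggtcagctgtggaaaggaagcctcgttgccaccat

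Acaa1a and Acaa1b are near-identical peroxisomal thiolase genes on chromosome 9. Of their windows of 50 bases of exon, 17.1% for Acaa1a and 39.6% for Acaa1b were shared with some other gene. The most frequent partner of each was its paralog, and the share with the paralog alone was not worked out. The promoters of these genes were less alike. The best local alignment covered 44 base pairs of the windows, of which 33 were identical (75%), with 4 gap bases. The promoters are printed with the identical bases in capitals, for Acaa1a at chr9:119341044-119341343 on the plus strand and for Acaa1b at chr9:119157044-119157343 on the minus strand, because the levels of these genes differed sharply between groups.
Acaa1a: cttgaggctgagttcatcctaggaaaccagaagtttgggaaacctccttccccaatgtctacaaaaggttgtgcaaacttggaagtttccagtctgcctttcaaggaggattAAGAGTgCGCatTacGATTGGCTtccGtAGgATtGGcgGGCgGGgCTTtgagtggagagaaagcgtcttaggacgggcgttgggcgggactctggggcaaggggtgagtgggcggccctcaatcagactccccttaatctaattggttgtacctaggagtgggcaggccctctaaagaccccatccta
Acaa1b: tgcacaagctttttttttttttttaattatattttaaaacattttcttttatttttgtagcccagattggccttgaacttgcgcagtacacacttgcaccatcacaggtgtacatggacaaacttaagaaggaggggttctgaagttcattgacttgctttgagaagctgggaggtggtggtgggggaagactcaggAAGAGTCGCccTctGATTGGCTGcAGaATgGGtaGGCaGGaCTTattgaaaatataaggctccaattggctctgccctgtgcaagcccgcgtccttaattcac

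Across the 6 comparisons, more members fell than rose in DSS, TRUC and TCT, few were called in DNBS and anti-CD40, and in the IL10 group the share called higher was near that of all genes and the direction depended on the scaling. Counts below are genes past an adjusted p of 0.05 by edgeR's quasi-likelihood test, set beside the share of all 18616 genes tested that passed in that direction. In DSS 19 of 34 members were lower, where 16.3% of all genes were lower, and 4 were higher against 17.7% of all genes. Without DSS mouse 8, in which many members were lowest, 13 were lower and 2 higher, and without wild-type control 4 only 1 was higher. In TRUC 15 members were lower (23.4% of all genes) and 2 higher (22.4%). In TCT 11 were lower (14%) and 2 higher (16.1%), with 6 lower when Rag1-/- control 3 was left out and 7 when TCT mouse 5 was. Against the wild-type controls instead, 5 were lower and 3 higher in TCT. Those controls differ from TCT in labelled strain and genotype as well, and the share of all genes was not worked out for this comparison. In anti-CD40 3 were lower (10.7%) and 3 higher (10.9%), which is near the background. Markers of absorptive colonocytes moved with the falls in TRUC and TCT. Their summed level over 6 genes was 2376 to 3053 CPM in TRUC against 4137 to 4997 CPM in Rag2-/- controls, with 4 genes lower and 1 higher, and 2629 to 3282 CPM in TCT against 3557 to 4076 CPM in Rag1-/- controls, with 2 lower and 1 higher. In DSS it was 2384 to 3593 CPM against 3261 to 4120 CPM, with 1 lower and 1 higher. Smooth muscle markers summed to 2969 to 4353 CPM in TRUC against 5979 to 6587 CPM, with 2 of 6 lower. The part of these cell types in the members' values was not tested. The median log2 fold change over the 34 members was -0.47 in DSS, -0.39 in TRUC, -0.35 in TCT and -0.11 in anti-CD40, and the medians over all genes lay between -0.03 and 0.02 in the 6 comparisons.

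In the IL10 group 11 of 34 members (32.4%) were higher, where 27.2% of all genes were higher, and 4 (11.8%) lower, where 26.1% were lower, with a median of 0.11. Without mouse 4 the counts were 8 higher and 4 lower, and without mice 3 and 4 they were 5 higher and 3 lower. In DNBS 1 member was higher (3.95% of all genes) and none was lower (2.21%) by edgeR. At an unadjusted p under 0.05, 2 members were higher and 0 lower in DNBS, and DESeq2 called 0 in either direction. The share of all genes was worked out for neither, so these counts have no background. None of the members was lower in all 6 models, where 0.612% of all genes were. Over all comparisons 32 members were called at least once, and 5 were called higher in a model and lower in another. The shares of all genes for these last 2 counts were not worked out, so they are not set against a background. The 6 contrasts differed in an F test for 29 of 34 members, where 60.5% of all genes passed.

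**Figure D1:**
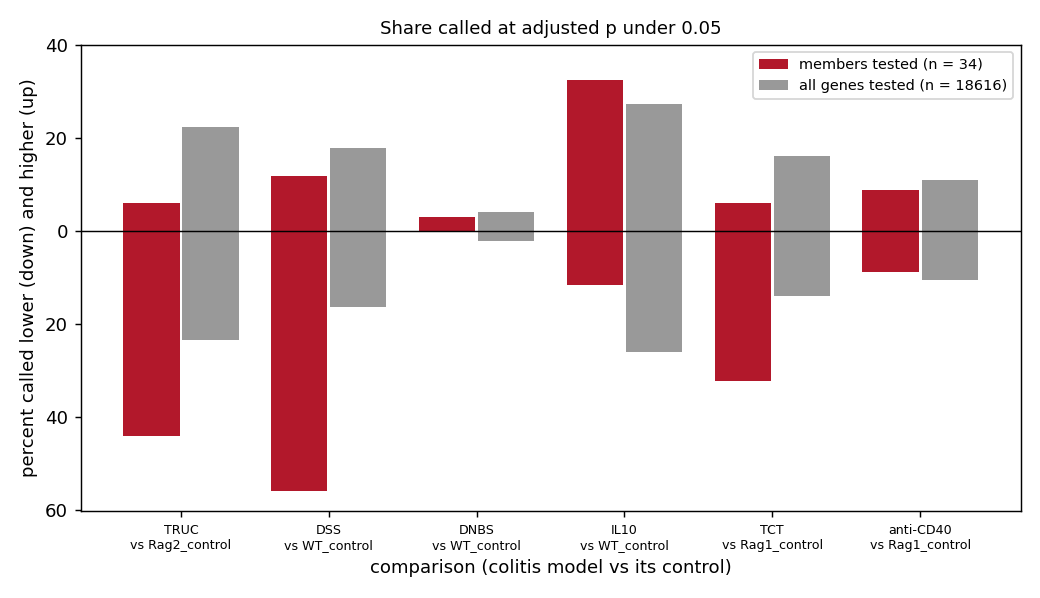
Share of the 34 members tested (red) and of all 18616 genes tested (grey) called higher (above 0) or lower (below 0) at an adjusted p under 0.05 in each colitis model against its control, in percent. The members' lower share exceeds that of all genes in TRUC, DSS and TCT, and in DNBS no member was called lower.

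DSS and the IL10 group shared their controls, so the groups were also compared directly, a contrast added after their counts were seen. In DSS 27 members were lower than in the IL10 group (24.6% of all genes) and 1, Pdk4, was higher (25.1%), with a median of -0.70. Without mouse 4 of the IL10 group 21 were lower and 1 higher. Markers of epithelium moved with this difference. Their summed level was 6625 to 8414 CPM in DSS, 9090 to 10754 CPM in the wild-type controls and 13475 to 18243 CPM in the IL10 group, and all 8 markers were lower in DSS than in IL10. With counts scaled to these markers in place of TMM, the median of all genes shifted by 0.99 in this contrast, 2 members were lower (2.71% of all genes) and 17 higher (73.1% of all genes), so that the share of members higher, 50%, lay below that of all genes. The members' median was then 0.32. Relative to the median of all genes, the members' median was -0.71 under TMM and -0.68 under the epithelial scaling. In DSS against its controls that scaling shifted all genes by 0.31. It left 7 members lower (20.6%, against 6.55% of all genes) and 5 higher (14.7%, against 32.7%). In TRUC 22 were lower (64.7%, against 33.5%) and 2 higher (5.88%, against 12.3%). In TCT 13 were lower (38.2%, against 14%) and 1 higher (2.94%, against 12.4%). In anti-CD40 5 were lower (14.7%, against 16.2%) and 2 higher (5.88%, against 5.11%). In DNBS 0 were lower (against 3.36%) and 1 higher (2.94%, against 1.67%). In IL10 the scaling shifted all genes by -0.68 and gave 22 members lower (57.9% of all genes) and 5 higher (8.57%). The 64.7% of members lower in IL10 was thus near the background. Cpt2, Hadhb, Eci2 and Etfa, called higher in IL10 under TMM, were then at -0.13, -0.44, -0.30 and -0.00144. Directions below are on the TMM scale.

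**Figure D2:**
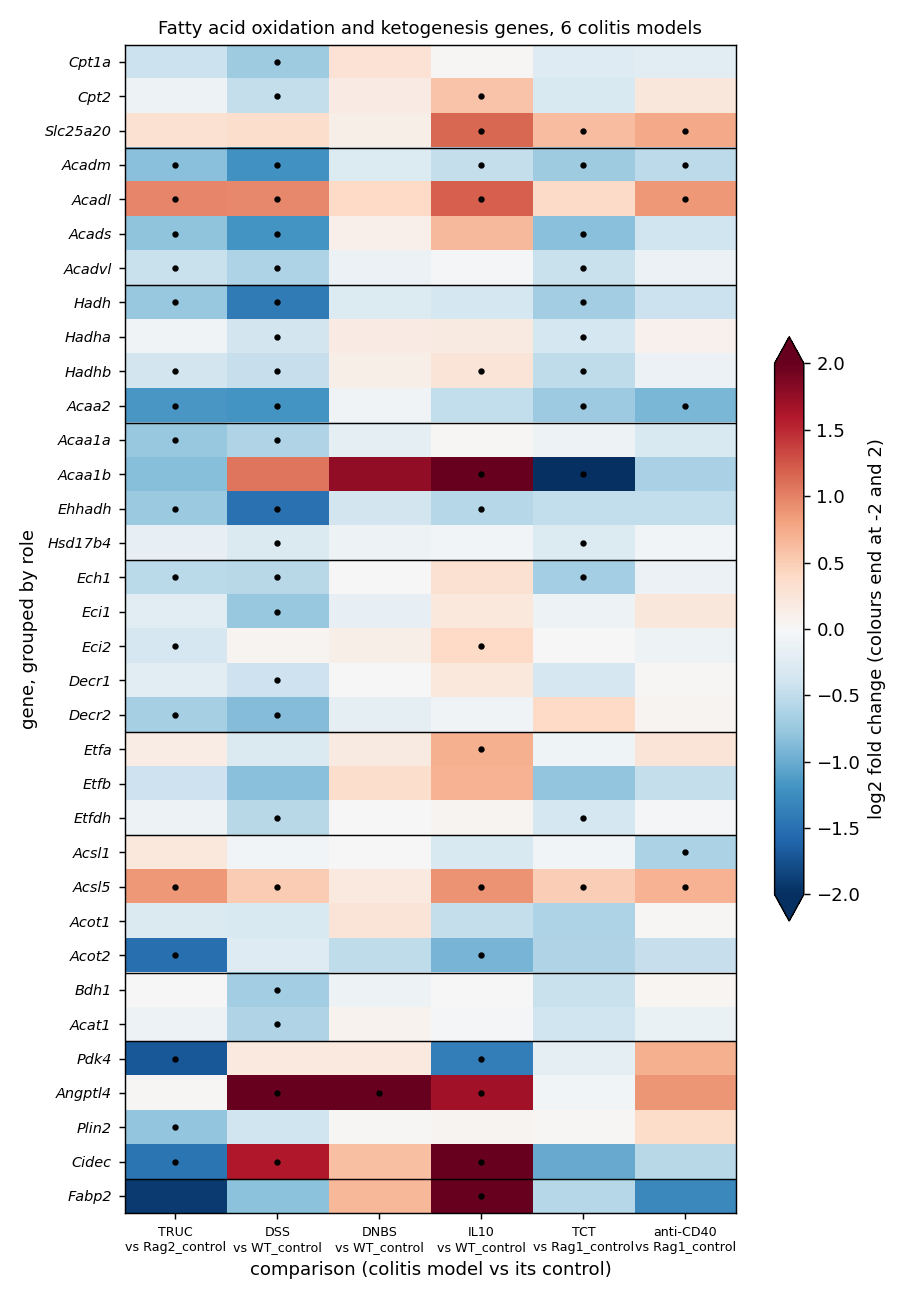
Log2 fold change of the 34 members tested (rows, grouped by role, in the order of the text) in each model against its control (columns). Colour gives the log2 fold change from -2 (blue) to 2 (red) and dots mark an adjusted p under 0.05. Blue dominates in TRUC, DSS and TCT, while Acadl and Acsl5 are red in all 6 columns on the TMM scale.

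The carnitine shuttle did not move as a unit. Cpt1a, the outer-membrane carnitine palmitoyltransferase that gates entry of long chains, was at 207, 213 and 250 CPM in the wild-type controls and at 139, 169 and 103 CPM in DSS, with no overlap. It fell by 0.70 ± 0.21 on the log2 scale (SE, adjusted p = 0.0107) and was not called in any other model. Without DSS mouse 8 its change was -0.54 and not called. Cpt2, which releases acyl-CoA inside the mitochondrion, was at 66.8, 68.8 and 77.5 CPM in the controls, at 62.4, 54.2 and 37.0 CPM in DSS and at 80.5, 98.4, 103 and 142 CPM in the IL10 group. Cpt2 was called lower in DSS (-0.47 ± 0.17, adjusted p = 0.0396) and higher in IL10 (0.57 ± 0.16, adjusted p = 0.00535), and the DSS call was lost without DSS mouse 8 (-0.28) or any of the 3 controls.

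Slc25a20, the carnitine-acylcarnitine translocase of the inner membrane (chr9:108662088-108684641), went the other way. It was at 174, 174 and 186 CPM in wild-type controls and at 290, 483, 394 and 409 CPM in the IL10 group, all of them above the controls, a rise of 1.15 ± 0.17 on the log2 scale (2.22-fold, adjusted p = 1.47e-05). In anti-CD40 it was at 277, 244 and 336 CPM against 158, 164 and 186 CPM in the Rag1-/- controls (0.75 ± 0.18, adjusted p = 0.00534). In TCT it was at 357, 174 and 250 CPM, so that mouse 3 lay within the controls, and the call (0.62 ± 0.18, adjusted p = 0.0119) was lost without TCT mouse 1 (0.32).

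The 4 acyl-CoA dehydrogenases, which carry out the opening step for chains of different length, split. Acadm, the medium-chain enzyme (chr3:153922357-153944632), was lower in 5 of the 6 models. It was at 191, 200 and 205 CPM in wild-type controls, at 96.5, 103 and 58.9 CPM in DSS and at 130, 129, 139 and 172 CPM in the IL10 group, with no IL10 or DSS mouse reaching the controls. The TRUC mice were at 126, 121, 129 and 140 CPM against 227, 247 and 215 CPM in Rag2-/- controls. In TCT it was at 147, 142 and 114 CPM and in anti-CD40 at 162, 129 and 169 CPM, against 227, 223 and 208 CPM in Rag1-/- controls, again without overlap. The log2 changes of Acadm were -1.20 ± 0.16 in DSS (2.30-fold lower, adjusted p = 1.05e-05), -0.84 ± 0.15 in TRUC (adjusted p = 0.000101), -0.71 ± 0.16 in TCT (adjusted p = 0.00148), -0.52 ± 0.16 in anti-CD40 (adjusted p = 0.0214) and -0.48 ± 0.15 in IL10 (adjusted p = 0.00901). In DNBS it was at 189, 162 and 142 CPM (-0.27 ± 0.16, not called). The anti-CD40 call of Acadm was lost without mouse 7 (-0.41) or without control 2 or 3.

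Acadl, the long-chain enzyme (chr1:66830839-66863277), rose in 4 of the 5 models in which Acadm fell. It was at 139, 143 and 164 CPM in wild-type controls, at 261, 271 and 337 CPM in DSS and at 343, 408, 298 and 319 CPM in the IL10 group. TRUC mice were at 449, 493, 451 and 398 CPM against 222, 261 and 199 CPM in Rag2-/- controls. In anti-CD40 it was at 417, 408 and 407 CPM against 199, 223 and 250 CPM in Rag1-/- controls. In these 4 models every mouse lay above every control, with log2 changes of 0.96 ± 0.15 (DSS, adjusted p = 5.47e-05), 1.20 ± 0.14 (IL10, adjusted p = 1.15e-06), 0.98 ± 0.14 (TRUC, adjusted p = 1.53e-05) and 0.87 ± 0.15 (anti-CD40, adjusted p = 0.000344). Acadl was at 162, 184 and 244 CPM in DNBS and at 281, 255 and 337 CPM in TCT, and neither was called (0.40 and 0.38). In DSS, IL10, TRUC and anti-CD40, Acadm and Acadl were thus called in opposite directions in the same mice. With the epithelial scaling the opposite calls held in all 4 models.

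**Figure D3:**
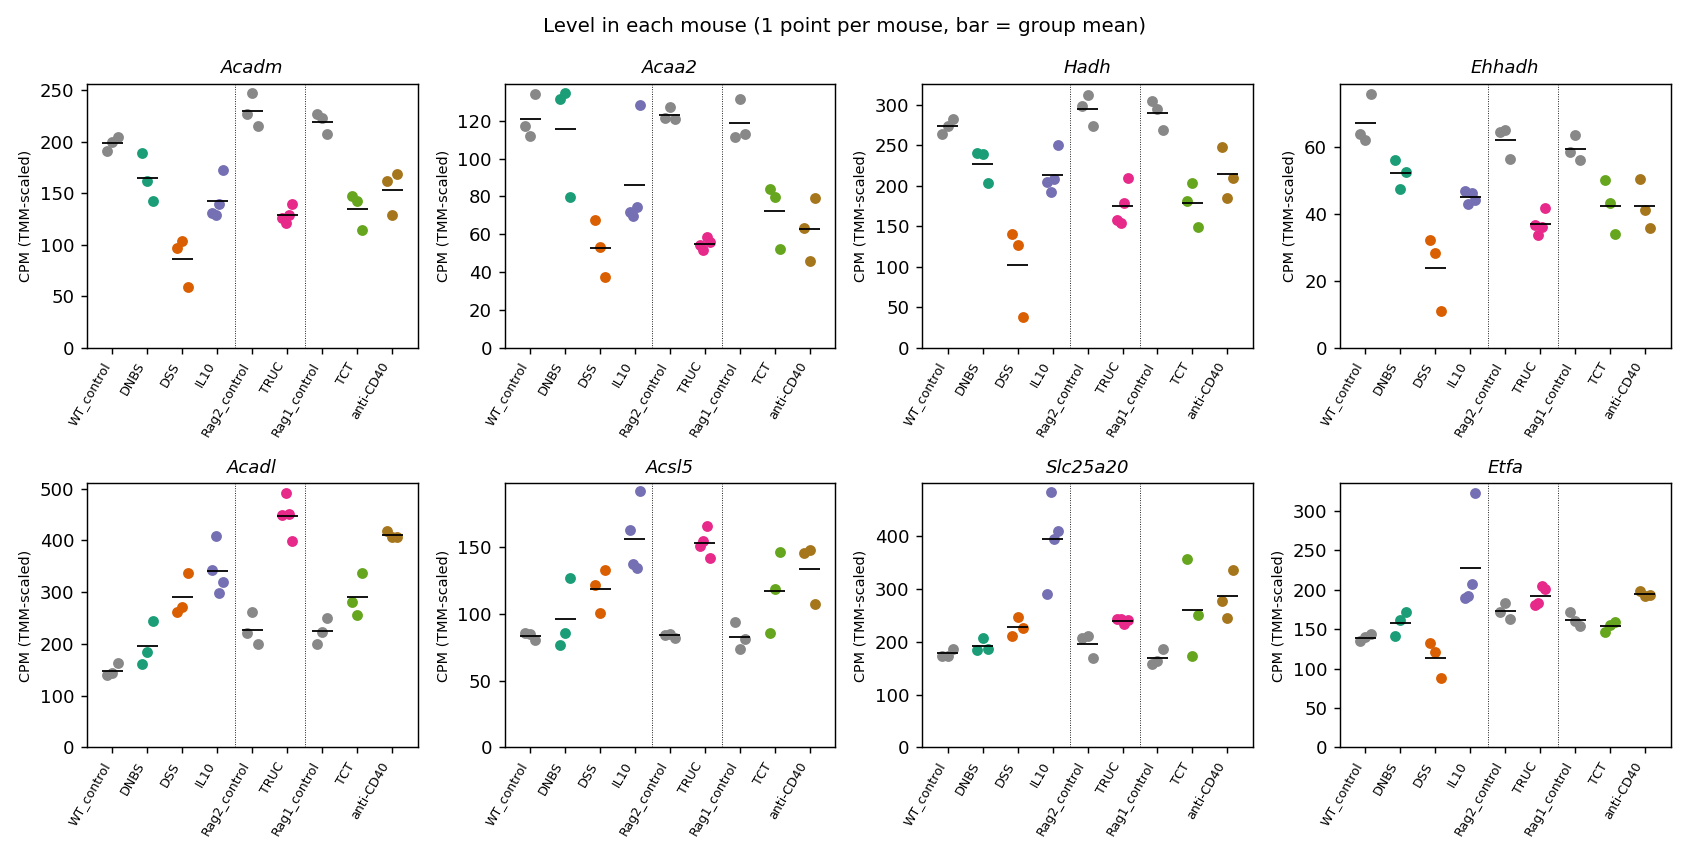
Level of 8 members in each mouse, in CPM after TMM scaling, with 1 point per mouse and a bar at the group mean. Dotted lines separate the mice compared with wild-type, Rag2-/- and Rag1-/- controls. Acadm, Acaa2, Hadh and Ehhadh (upper row) lie below the controls in DSS and TRUC, and Acadl and Acsl5 (lower row) lie above them.

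Acads, the short-chain enzyme that acts on butyryl-CoA, and Acadvl, the very-long-chain enzyme, followed Acadm in 3 models. Acads fell by 1.19 ± 0.31 in DSS (adjusted p = 0.00456), by 0.84 ± 0.31 in TCT (adjusted p = 0.0394) and by 0.80 ± 0.28 in TRUC (adjusted p = 0.0239). Acads in the IL10 group was at 87.8, 87.6, 123 and 245 CPM, the highest value being that of mouse 4, against 71.6 to 109 CPM in controls (0.65 ± 0.29, not called). The change of Acads without mouse 4 was not worked out. Acadvl fell by 0.61 ± 0.11 in DSS, 0.45 ± 0.11 in TCT and 0.44 ± 0.10 in TRUC. Exons of Acadvl overlap those of Dvl2 on the opposite strand. Of the Acadvl windows 26.9% were shared with another gene, most often Dvl2. Without strand information reads of these genes cannot be told apart in the overlap.

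The mitochondrial hydroxyacyl-CoA dehydrogenases and thiolases fell in DSS (4 of 4 members), TCT (4 of 4) and TRUC (3 of 4). Of all genes, 16.3% were lower in DSS, 14% in TCT and 23.4% in TRUC. Hadh, which oxidises medium- and short-chain hydroxyacyl-CoA, was at 264, 274 and 282 CPM in wild-type controls and at 141, 127 and 38.3 CPM in DSS, where mouse 8 was lowest. TRUC values were 158, 154, 178 and 209 CPM against 299, 312 and 274 CPM. Hadh fell by 1.42 ± 0.26 in DSS (2.68-fold, adjusted p = 0.000271), 0.75 ± 0.24 in TRUC (adjusted p = 0.0128) and 0.70 ± 0.26 in TCT (adjusted p = 0.0424). Without DSS mouse 8 the change in DSS was -1.03, still called, and the TCT call was lost without any of the 6 mice compared.

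Acaa2, the mitochondrial thiolase that releases acetyl-CoA, fell in 4 models. It was at 117, 112 and 134 CPM in wild-type controls, at 67.7, 53.1 and 37.4 CPM in DSS, and at 71.7, 69.5, 74.4 and 128 CPM in the IL10 group. In TRUC it was at 54.2, 51.6, 58.6 and 55.8 CPM against 122, 127 and 121 CPM in Rag2-/- controls, and no TRUC mouse reached a control. Acaa2 fell by 1.20 ± 0.24 in DSS (adjusted p = 0.000565), 1.16 ± 0.22 in TRUC (adjusted p = 0.000225), 0.92 ± 0.24 in anti-CD40 (adjusted p = 0.00872) and 0.72 ± 0.24 in TCT (adjusted p = 0.0246). The anti-CD40 call was lost without mouse 7 (-0.73), and the TCT call without TCT mouse 5 (-0.53) or control 3 (-0.63). Of the IL10 mice, 3 of 4 lay below the controls and mouse 4 within them. The change of Acaa2 there was -0.50 ± 0.22 and not called with all mice, and -0.76 with an adjusted p of 0.00371 without mouse 4.

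Hadha and Hadhb, the head-to-head genes shown above, were lower in DSS and TCT together. Hadha was at 285, 312 and 319 CPM in wild-type controls and at 261, 233 and 214 CPM in DSS. Hadhb was at 147, 154 and 156 CPM in the same controls, at 120, 116 and 95.6 CPM in DSS and at 166, 169, 170 and 224 CPM in the IL10 group. Hadha changed by -0.37 ± 0.10 in DSS (adjusted p = 0.00818) and -0.35 ± 0.10 in TCT (adjusted p = 0.0126), and Hadhb by -0.47 ± 0.11 (adjusted p = 0.00295) and -0.50 ± 0.11 (adjusted p = 0.00158). Hadhb alone was also called in TRUC (-0.36 ± 0.11, adjusted p = 0.00726) and, upwards, in IL10 (0.26 ± 0.11, adjusted p = 0.0465), a call that was lost without mouse 4 (0.13) or any control. Of the Hadhb windows 19.7% were shared with another gene, most often Gm13910, so that the Hadhb counts are uncertain to that extent.

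Among the peroxisomal enzymes, Ehhadh, the bifunctional enzyme, showed the largest fall in DSS of any member. It was at 63.9, 62.1 and 75.8 CPM in wild-type controls, at 32.3, 28.3 and 10.9 CPM in DSS and at 46.9, 43.1, 46.4 and 44.1 CPM in the IL10 group. In TRUC it was at 36.6, 33.8, 36.1 and 41.8 CPM against 64.6, 65.3 and 56.4 CPM in Rag2-/- controls. None of these model mice reached its controls. Ehhadh fell by 1.49 ± 0.23 in DSS (2.81-fold, adjusted p = 3.95e-05), 0.74 ± 0.21 in TRUC (adjusted p = 0.00533) and 0.57 ± 0.21 in IL10 (adjusted p = 0.0224). Without DSS mouse 8 the DSS change was -1.15, still called, and the IL10 call was lost without control 4 (-0.48).

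Acaa1a, the main peroxisomal thiolase, was at 84.9, 90.8 and 85.9 CPM in Rag2-/- controls and at 50.2, 48.0, 51.5 and 56.2 CPM in TRUC. In DSS it was at 62.7, 70.2 and 68.8 CPM against 97.3, 96.4 and 111 CPM. Acaa1a fell by 0.76 ± 0.10 in TRUC (adjusted p = 6.07e-06) and 0.59 ± 0.11 in DSS (adjusted p = 0.000285) and was not called elsewhere. Its exons overlap those of Myd88 on the opposite strand, whose level was 54.5 to 81.6 CPM in TRUC and 29.2 to 35.3 CPM in Rag2-/- controls, and 52.2 to 122.6 CPM in DSS and 27.9 to 29.9 CPM in wild-type controls. The part of this overlap in the counts was not tested. Hsd17b4, the other multifunctional enzyme of peroxisomes, fell by 0.29 ± 0.10 in DSS and 0.28 ± 0.10 in TCT.

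Acaa1b was low in every wild-type control and high in every Rag1-/- and Rag2-/- control, but the labels of strain and genotype did not sort its values, since the TCT mice were low. It was at 3.45, 3.44 and 2.57 CPM in Rag2-/- controls, at 3.57, 3.39 and 2.41 CPM in Rag1-/- controls, at 1.70, 1.96, 1.10 and 2.20 CPM in TRUC and at 1.69, 2.32 and 1.94 CPM in anti-CD40. It was at 0, 0.0666 and 0.0820 CPM in wild-type controls, and between 0.0684 and 0.388 CPM in the DNBS and DSS mice. In the TCT mice, labelled Rag1-/-, it was at 0.175, 0.256 and 0.0927 CPM, and in the IL10 group at 0.337, 0, 0.172 and 3.14 CPM, where mouse 4 alone was at the level of the Rag-deficient controls. The summed counts of the 3 wild-type controls were 2 and those of the Rag2-/- controls 118, a ratio of 62.8 with a 95% counting interval of 17.0 to 525 (exact binomial). The ratio of Rag1-/- controls to TCT was 17.8, with an interval of 7.93 to 49.4. The IL10 group was called higher than its controls (adjusted p = 0.00435) with a ratio of 17.0 (4.38 to 146), and without mouse 4 the ratio was 3.64 (0.651 to 36.9) and the call was lost. These intervals cover counting error only, and reads shared with Acaa1a leave the level uncertain.

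The auxiliary enzymes for unsaturated fatty acids were lower in DSS (4 of 5, against 16.3% of all genes) and TRUC (3 of 5, against 23.4%). Ech1, a dienoyl-CoA isomerase, was at 165, 163 and 172 CPM in wild-type controls and at 114, 128 and 99.2 CPM in DSS, and at 220, 260 and 239 CPM in Rag2-/- controls and 152, 162, 182 and 161 CPM in TRUC. In TCT it was at 154, 145 and 114 CPM against 222, 223 and 216 CPM. Ech1 fell by 0.55 ± 0.14 in DSS (adjusted p = 0.00459), 0.54 ± 0.13 in TRUC (adjusted p = 0.00185) and 0.68 ± 0.14 in TCT (adjusted p = 0.000797), with no overlap in any of the 3. Against wild-type controls the TCT change was -0.27 and not called.

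Decr2, the peroxisomal dienoyl-CoA reductase, was at 17.3, 17.0, 18.0 and 20.8 CPM in TRUC against 32.0, 29.9 and 25.3 CPM in Rag2-/- controls, and at 25.6, 33.5 and 19.1 CPM in DSS against 44.0, 49.8 and 48.9 CPM in wild-type controls. It fell by 0.67 ± 0.16 in TRUC (adjusted p = 0.00181) and 0.87 ± 0.17 in DSS (adjusted p = 0.000511). Decr2 also differed between the untreated groups, being lower than wild type by 0.71 in Rag2-/- and by 0.95 in Rag1-/- controls. Its mitochondrial counterpart Decr1 and the enoyl-CoA isomerase Eci1 were lower in DSS alone (-0.42 ± 0.16 and -0.76 ± 0.13). Eci2, an isomerase of peroxisomes and mitochondria, was at 42.6, 37.0, 35.4 and 57.8 CPM in the IL10 group against 32.5, 31.9 and 33.5 CPM (0.40 ± 0.14, adjusted p = 0.0189). The Eci2 call was lost without mouse 4 (0.22) or without control 1 or 2. Eci2 in TRUC was at 35.1, 36.2, 39.1 and 30.7 CPM against 45.9, 45.7 and 42.1 CPM, a fall of 0.34 with an adjusted p of 0.0497 that was lost when any of the 3 controls or mice 2, 3 or 5 was left out.

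Electron transfer proteins moved little outside DSS and IL10. Etfa, the alpha subunit of the electron transfer flavoprotein, was at 135, 140 and 143 CPM in wild-type controls and at 190, 192, 207 and 323 CPM in the IL10 group, where mouse 4 was highest and all 4 lay above the controls. Etfa rose by 0.71 ± 0.14 (adjusted p = 0.000318), and by 0.48 without mouse 4, still called. Etfdh, which hands the electrons to ubiquinone, fell by 0.55 ± 0.10 in DSS (adjusted p = 0.000213) and 0.35 ± 0.10 in TCT (adjusted p = 0.00864). Etfb, the beta subunit, lay between 0 and 2.08 CPM in every mouse and was called in no model. Of its windows 44.8% were shared with another gene, most often the overlapping Gm45233, which was listed at 0 in every mouse. How reads in the shared exons were counted is not given in the sources used here. The level of Etfb therefore cannot be read against that of Etfa.

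Acsl5, a long-chain acyl-CoA synthetase (chr19:55251938-55297720), was the member called higher in the most models. It was at 85.7, 84.6 and 80.6 CPM in wild-type controls, at 163, 137, 134 and 192 CPM in the IL10 group and at 122, 101 and 133 CPM in DSS. In TRUC it was at 151, 154, 166 and 142 CPM against 84.4, 85.1 and 82.0 CPM, without overlap. In TCT it was at 85.8, 119 and 146 CPM and in anti-CD40 at 145, 148 and 108 CPM, against 93.8, 73.6 and 81.1 CPM in Rag1-/- controls, and TCT mouse 1 lay within the controls. Acsl5 rose by 0.90 ± 0.17 in IL10 (adjusted p = 0.000175), 0.87 ± 0.17 in TRUC (adjusted p = 0.000352), 0.69 ± 0.18 in anti-CD40 (adjusted p = 0.00956), 0.50 ± 0.18 in DSS (adjusted p = 0.0358) and 0.50 ± 0.18 in TCT (adjusted p = 0.042). The DSS call was lost without any of 5 mice (DSS 5 or 8 or any control), the TCT call without TCT 3 or 5 or control 3 or 4, and the anti-CD40 call without mouse 7 or control 3. In DNBS it was at 76.4, 85.8 and 127 CPM (0.20, not called). With the epithelial scaling Acsl5 was called in TRUC and DSS but not in IL10 (0.20), TCT (0.43) or anti-CD40 (0.47), and its value in DNBS was -0.03.

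Acsl1, the synthetase typical of fat and liver, was called in anti-CD40 alone, where it fell by 0.63 ± 0.19 (adjusted p = 0.0185). Acot2, a mitochondrial thioesterase, was at 3.02, 2.31, 1.47 and 3.09 CPM in TRUC against 7.79, 6.81 and 6.72 CPM in Rag2-/- controls, and fell by 1.51 ± 0.32 (2.85-fold, adjusted p = 0.000529). In the IL10 group it was at 1.69, 3.43, 3.35 and 4.39 CPM against 4.65, 6.99 and 6.64 CPM (-0.93 ± 0.31, adjusted p = 0.0158), a call that was lost without IL10 mouse 1 or control 2. The cytosolic Acot1 was called in no model, and 27.7% of the windows of Acot2 were shared with another gene, most often Acot1.

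Both ketone body enzymes among the members fell in DSS and in no other model. Bdh1, which interconverts acetoacetate and beta-hydroxybutyrate, was at 138, 133 and 144 CPM in wild-type controls and at 118, 98.0 and 40.9 CPM in DSS. Acat1, the mitochondrial acetoacetyl-CoA thiolase, was at 258, 253 and 255 CPM in those controls and at 211, 174 and 121 CPM in DSS. No DSS mouse reached the controls, and mouse 8 was lowest for both genes. Bdh1 fell by 0.69 ± 0.22 (adjusted p = 0.0166) and Acat1 by 0.60 ± 0.16 (adjusted p = 0.0056). Without DSS mouse 8 the changes were -0.36 and -0.41, and neither was called.

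Genes of fuel choice and lipid storage changed by larger factors and differed more between mice. Angptl4, a secreted inhibitor of lipoprotein lipase, was at 1.83, 3.73 and 0.902 CPM in wild-type controls, at 5.67, 30.9 and 5.29 CPM in DNBS, at 4.53, 6.43 and 17.5 CPM in DSS and at 7.34, 8.21, 5.41 and 7.11 CPM in the IL10 group. Every mouse of these models lay above the controls. Angptl4 rose by 2.66 ± 0.67 in DNBS (adjusted p = 0.0214), 2.10 ± 0.67 in DSS (adjusted p = 0.0176) and 1.68 ± 0.64 in IL10 (adjusted p = 0.032). The DNBS call, the only call in that model, was lost without mouse 14 (1.33), control 1 or control 4. The DSS call was lost without mouse 8 (1.32), control 1 or control 4, and the IL10 call without mice 1 or 2 or controls 1 or 4. In the Rag-deficient comparisons Angptl4 was not called.

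Pdk4, which restrains pyruvate oxidation, was at 3.47, 1.07, 2.38 and 4.07 CPM in TRUC against 9.74, 9.11 and 8.16 CPM (-1.70 ± 0.54, adjusted p = 0.0135). In the IL10 group it was at 1.94, 2.70, 2.15 and 1.15 CPM against 4.88, 4.66 and 5.99 CPM (-1.38 ± 0.57, adjusted p = 0.0455). Both sets of values were without overlap, and Pdk4 was the 1 member higher in DSS than in IL10 (1.56 ± 0.57). Plin2, a coat protein of lipid droplets, was at 127, 152, 175 and 145 CPM in TRUC against 242, 278 and 260 CPM, and fell by 0.80 ± 0.16 (adjusted p = 0.000325). It was called in no other model.

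Cidec, a lipid droplet protein of fat cells, was called in opposite directions. It was at 2.67, 1.27 and 2.30 CPM in wild-type controls, at 12.1, 10.1, 10.7 and 22.0 CPM in the IL10 group and at 7.43, 6.02 and 5.28 CPM in DSS. In TRUC it was at 3.47, 4.09, 5.13 and 5.13 CPM against 3.63, 11.6 and 21.4 CPM in Rag2-/- controls, so that the lowest control lay within the TRUC mice. Cidec rose by 2.73 ± 0.52 in IL10 (6.62-fold, adjusted p = 0.000175) and 1.60 ± 0.54 in DSS (adjusted p = 0.0246), and fell by 1.46 ± 0.47 in TRUC (adjusted p = 0.0134), a call that was lost without Rag2-/- control 4 (-0.78). The DSS call was lost without DSS mouse 5 or control 2 or 4. Adipocyte markers moved with the TRUC value: 6 of 6 were lower there, with a summed level of 9.73 to 32.5 CPM against 29 to 132 CPM in Rag2-/- controls. In the IL10 group and DSS none of the 6 adipocyte markers was called, with sums of 5.23 to 51.3 CPM and 30.0 to 61.8 CPM against 14.5 to 44.1 CPM. Their part in the Cidec values was not tested.

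**Figure D4:**
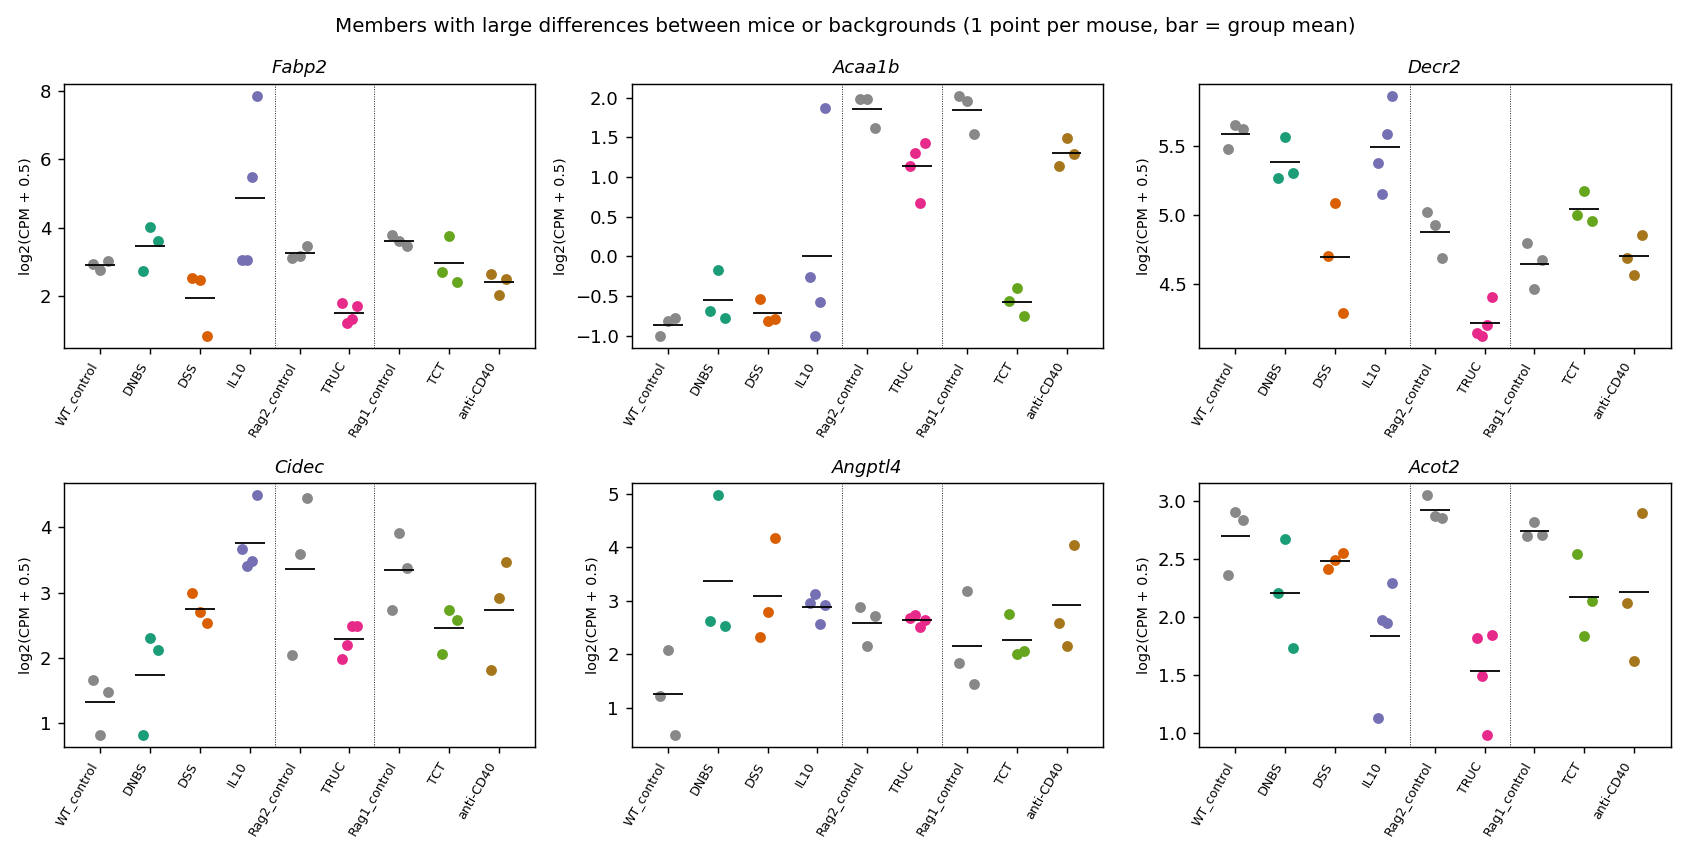
Level of 6 members in each mouse as log2(CPM + 0.5), with 1 point per mouse and a bar at the group mean. Fabp2 and Acaa1b are far higher in mouse 4 of the IL10 group than in the other IL10 mice, and Acaa1b is high in all Rag2-/-, Rag1-/-, TRUC and anti-CD40 mice but not in TCT.

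Fabp2, the intestinal fatty acid binding protein, was at 7.84, 7.80, 43.8 and 233 CPM in the IL10 group against 7.09, 6.19 and 7.63 CPM in wild-type controls. The lowest IL10 mice lay just above the controls, while mouse 4, the mouse without distal colon markers, was the highest of all 29. Fabp2 rose by 3.39 ± 0.80 on the log2 scale (adjusted p = 0.00121), and by 1.49 without mouse 4 (adjusted p = 0.0204). That remaining rise rested on mouse 3, the mouse low for Hoxd13: without mice 3 and 4 the change of Fabp2 was 0.17 and was not called. In TRUC Fabp2 was at 2.95, 1.78, 2.02 and 2.77 CPM against 8.15, 8.49 and 10.5 CPM, without overlap, but the difference was not called (-1.91 ± 0.79).

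The untreated groups differed in some members. Against wild-type mice, 5 members were higher (3.25% of all genes) and 1, Decr2, was lower (4.86%) in Rag2-/- controls. In Rag1-/- controls 5 were higher (4.77%) and 1, again Decr2, lower (6.18%). Acadl, Hadhb, Acaa1b and Cidec were higher in both comparisons, which share the wild-type mice. Acadl was higher by 0.61 ± 0.15 in Rag2-/- and 0.59 ± 0.15 in Rag1-/- controls, and Cidec by 2.56 ± 0.54 and 2.30 ± 0.54. Adipocyte markers moved with Cidec, summing to 29 to 132 CPM in Rag2-/- and 94.1 to 158 CPM in Rag1-/- controls against 14.5 to 44.1 CPM in wild type, with 2 and 3 of 6 called higher, and their part was not tested. Strain, genotype and housing cannot be told apart here. Between Rag1-/- and Rag2-/- controls no member was called by edgeR (0 higher against 0.0698% of all genes and 0 lower against 0.0537%). At an unadjusted p under 0.05 none was higher and 2 lower, and the share of all genes at that limit was not worked out. DESeq2 was not run on this comparison.

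Of 78 other genes of these pathways, 75 were tested. In DSS 32 were lower (42.7%, against 16.3% of all genes) and 6 higher (8%, against 17.7%). In TRUC 30 were lower (40%, against 23.4%) and 10 higher (13.3%, against 22.4%), and in TCT 26 were lower (34.7%, against 14%) and 5 higher (6.67%, against 16.1%). In anti-CD40 13 were lower (17.3%, against 10.7%) and 6 higher (8%, against 10.9%), and in DNBS 2 were lower (2.67%, against 2.21%) and 1 higher (1.33%, against 3.95%). In the IL10 group, mouse 4 included, 17 were lower (22.7%, against 26.1%) and 29 higher (38.7%, against 27.2%). Counts with the epithelial scaling are given beside the share of all genes under that scaling. In DSS 16 were lower (6.55%) and 13 higher (32.7%), and in TRUC 42 were lower (33.5%) and 7 higher (12.3%). In TCT 29 were lower (14%) and 4 higher (12.4%), and in anti-CD40 18 were lower (16.2%) and 3 higher (5.11%). In DNBS 2 were lower (3.36%) and 1 higher (1.67%). In IL10, mouse 4 included, 39 were lower (57.9%) and 7 higher (8.57%). Other mitochondrial oxidation genes were lower for 12 of 18 in TCT, 11 of 18 in TRUC and 10 of 18 in DSS, and regulators were higher for 5 of 8 in IL10 and lower for 4 of 8 in DSS.

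Slc16a1, a transporter of butyrate and ketone bodies, and Acsl3, a long-chain acyl-CoA synthetase, were lower in all 6 models. Of all genes tested, 0.612% were lower in all 6. Slc16a1 was at 449, 439 and 455 CPM in wild-type controls, at 141, 154 and 130 CPM in DSS and at 362, 249 and 289 CPM in DNBS. It fell by 1.66 in DSS, 1.11 in IL10, 0.65 in TRUC, 0.63 in TCT, 0.58 in DNBS and 0.47 in anti-CD40. Acsl3 fell by between 0.81 (DNBS) and 2.24 (DSS), and thus moved against its paralog Acsl5. Slc5a8, another butyrate transporter, fell in DSS (-1.41), TRUC (-0.70), TCT (-0.89) and anti-CD40 (-0.86).

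Ppara, the nuclear receptor that controls many of these genes, was at 7.17, 6.81 and 6.80 CPM in Rag2-/- controls and at 1.11, 0.979, 0.550 and 1.22 CPM in TRUC. In DSS it was at 2.14, 1.78 and 1.36 CPM against 4.80, 5.00 and 5.17 CPM. Ppara fell by 2.82 ± 0.28 in TRUC (adjusted p = 1.05e-07), 1.49 in DSS, 1.52 in TCT and 1.22 in anti-CD40. Its coactivator Ppargc1a fell in TRUC (-2.0), DSS (-2.04) and IL10 (-1.83). Against these falls, Plin5, which tethers lipid droplets to mitochondria, was at 1.55, 1.51, 1.56 and 1.87 CPM in TRUC and at 0.266, 0 and 0.0755 CPM in Rag2-/- controls, and was called higher in TRUC, DSS, IL10 and TCT. Acox2, a peroxisomal oxidase, rose in TRUC (1.86), DNBS (2.89) and IL10 (3.12), and Fabp5, an epidermal-type binding protein, in DSS (2.47), IL10 (1.44) and TCT (2.59). Abcd2, a peroxisomal transporter, rose in DSS (1.37) and fell in TRUC (-1.32) and anti-CD40 (-1.58). Plin1, a fat cell droplet protein, fell in TRUC (-2.62) and TCT (-3.58), where adipocyte markers fell as well. The mitochondrial genes Acsm3 and Acad10 fell in TRUC (-1.30 and -1.33), TCT (-1.96 and -1.17) and IL10 (-1.86 and -0.64), and Acad10 also in DSS (-1.15). IL10 mouse 4 had 39 counts of Acsm3 against 454 to 726 in the other IL10 mice, and 80 of Ppargc1a against 230 to 407. For Acox2 it had 36 against 16 to 25, while for Fabp5 and Plin5 it lay within the others. The IL10 changes of these genes without mouse 4 were not worked out.

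Neutrophil markers rose in every model, for 5 or 6 of 6 genes, and macrophage markers for 5 of 5 in DSS, TRUC and TCT. The part of immune cell numbers in the members' values was not tested.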

How the data were processed

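Colon RNA of 29 mice was examined from a single table of counts per gene deposited by the authors. The submitters' processing notes name Trimmomatic, HISAT2, HTSeq and the GRCm38 genome, with versions not given in the sources used here. The kit as described does not mark strand. Groups followed the sample labels. The members and gene lists were chosen with earlier results of these data known, and lists of other pathway genes and markers were taken from general knowledge.

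Rows of 92 spike-in sequences, whose counts summed to 0, were left out. Testing was limited to the 18616 genes whose count averaged 3 or more across the mice. After TMM scaling they were fitted in edgeR 4.0.16 (R 4.3.3) with the quasi-likelihood model over all 9 groups, so that all groups shared an estimate of the spread. P-values were two-sided and adjusted over all genes tested by the Benjamini-Hochberg method, with 0.05 as the threshold. Standard errors were derived from each log2 fold change and its F statistic, as their ratio with F under a square root. Levels are CPM on TMM-scaled library sizes. Totals of 10725564 to 14977094 counts make 3 counts, the most that a count of 0 allows, equal to 0.179 to 0.314 CPM. No 2 mice of a group agreed within sampling noise (lowest chi-square per degree of freedom 3.42). The fit was tested on simulated data.

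Values per mouse were given, by rule, for the 2 members of each role with the largest absolute median log2 fold change over the 6 models and for members called in both directions (24 members, Etfb by its range). Of other pathway genes the 2 per list with the largest absolute median were named. Further members were described for their roles. Alternatives were DESeq2 1.42.0 and edgeR on the 2 groups compared, other scalings, filters and thresholds, each mouse left out in turn, wild-type controls for TCT, and replicate numbers as a block. Same-numbered mice did not deviate together (correlations from -0.0584 to 0.0341). Only TRUC mice 2 and 4 and IL10 mice 1, 2 and 4 shared a number with a control, too few to tell whether the numbers pair the mice. Promoters came from RefSeq (GRCm38.p6) and gene positions from GENCODE M21 (GRCm38).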

Additional observations from a re-analysis of the deposited data

Results flagged for a closer look

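The gap between the highest or lowest mouse and its nearest neighbour was divided by the range of its group of 4 mice. It passed Dixon's 95% limit in 4 of 48 tests, 24 members in each of the IL10 and TRUC groups. Chance passes about 1 in 20 of independent tests, but the same mice recur in these. Mouse 4 of the IL10 group was the highest for Hadhb (0.924 of the range), Acaa2 (0.890) and Etfa (0.835). TRUC mouse 4 was the lowest for Slc25a20 (0.837), at 234 CPM against 241 to 242 CPM.

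The change against control differed between the 6 models for 21 of the 24 members named by rule. This was by edgeR's F test of equal contrasts with adjustment over all genes, which 60.5% of all genes passed. The 24 were picked from these same contrasts, 5 of them for calls in both directions, so their count cannot be read against that share. The adjusted p was 3.25e-05 for Hadhb, 3.95e-05 for Ech1, 6.66e-05 for Acaa1a and 0.000107 for Etfa. It was 0.000167 for Cpt2, 0.000175 for Fabp2, 0.000185 for Cidec, 0.00027 for Slc25a20, 0.000284 for Decr2 and 0.000298 for Acadl. It was 0.000552 for Acaa1b, 0.00069 for Acadm, 0.00128 for Plin2, 0.00426 for Ehhadh, 0.00443 for Acaa2 and 0.0057 for Cpt1a. It was 0.00768 for Hadh, 0.00945 for Acat1, 0.0171 for Acsl5, 0.0286 for Bdh1 and 0.0306 for Eci2.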

How the results depend on the processing

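Groups of 3 or 4 mice limit all counts, and the cause of each change below was not tested. With each mouse left out in turn, members past the F test numbered 27 to 31 (29 with all mice). Members called higher and lower were 2 to 2 and 13 to 15 in TRUC, 1 to 4 and 13 to 20 in DSS, 0 to 2 and 0 to 0 in DNBS, 8 to 12 and 2 to 4 in IL10, 1 to 2 and 6 to 11 in TCT, 2 to 3 and 1 to 4 in anti-CD40, and 0 to 1 and 21 to 26 for DSS against IL10, a contrast chosen after seeing the data. The lowest counts came without wild-type control 4 (DSS higher), DNBS 14 or wild-type control 1 or 4 (DNBS), IL10 mouse 1 or wild-type control 2 or 4 (IL10 lower), Rag1-/- control 3 (TCT lower) and anti-CD40 mouse 7 or Rag1-/- control 3 (anti-CD40 lower).

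At an adjusted p under 0.01 the counts were 1 lower in anti-CD40, 0 higher in DNBS, 1 higher in DSS, 1 lower in IL10, 0 higher and 6 lower in TCT, and 0 higher for DSS against IL10. On the 2 groups alone, DESeq2 gave 7 lower in anti-CD40, 0 higher in DNBS and 1 higher in TCT, and edgeR gave 7 lower in anti-CD40, 0 higher in DNBS, 12 lower in DSS, 0 higher in TCT and 15 lower for DSS against IL10. filterByExpr and upper quartile scaling each gave 2 higher for DSS against IL10, and no filter gave 1 higher in TCT. Against wild-type controls, which also differ in labelled strain and genotype, TCT had 5 lower, and Acaa1b was at 1.64. Shares of all genes were not worked out for this setting or for the other settings above. Scaling to epithelium markers gave 5 lower in anti-CD40 (16.2% of all genes), 7 lower in DSS (6.55%) and 1 higher in TCT (12.4%). It gave 5 higher (8.57%) and 22 lower (57.9%) in IL10, and 17 higher (73.1%) and 2 lower (2.71%) for DSS against IL10. That scaling turned the IL10 changes of Cpt2 (-0.13), Eci2 (-0.30), Etfa (-0.00144) and Hadhb (-0.44), and for DSS against IL10 those of Acaa1a (0.37), Acaa2 (0.33), Acadm (0.27), Acat1 (0.42), Bdh1 (0.31), Cpt1a (0.24), Decr2 (0.18), Ech1 (0.16), Eci2 (0.67), Ehhadh (0.060), Etfa (0.022), Hadhb (0.29), Plin2 (0.54) and Slc25a20 (0.21). Without IL10 mice 3 and 4, also chosen after seeing the data, 5 were higher and 3 lower in IL10, and the calls of Cpt2, Ehhadh, Eci2, Hadhb, Acaa1b, Angptl4 and Fabp2 were lost.

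With the replicate number as a block, 8 members were higher and 4 lower in IL10, and 2 higher and 16 lower in TRUC. Whether the numbers pair the mice could not be told.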
